A study of Rattus norvegicus with 6 samples.

Results

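The genes described here are those of the mitotic machinery on a rat expression array: kinesin motors, centromere and kinetochore proteins, the spindle checkpoint, the Aurora and Polo kinases, spindle and cytokinesis proteins, condensins and the mitotic cyclins. They were taken by name, as probe sets whose platform annotation gives exactly 1 symbol that matches a fixed pattern of family names (Kif followed by a digit, Cenp, Bub, Mad2l, Aurk, Plk, Ncap, Tacc and single genes such as Mki67 and Top2a). This gave 120 of 31099 probe sets, which stand for 80 of 14217 genes. The pattern uses names and no measured value, but it was chosen with earlier results of these data known. The pattern is wider than mitosis: 16 of the 80 genes are kinesins outside the mitotic set, most of them known for transport in interphase or in cilia, and single members such as Mad2l2, known from translesion DNA synthesis, carry a mitotic family name with another role. Ndc80, Tpx2 and Anln were not analysed here, and 5 probe sets whose annotation joins a matching name to another gene were left out.

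RNA was measured in 6 cultures of UMR106-01, an established rat osteosarcoma line with osteoblast properties, with 1 Affymetrix array per culture. The 3 AEBSF cultures received fresh medium at 64 h after plating that held 6.5 mM beta-glycerol phosphate, the phosphate source for mineral, and 400 µM AEBSF, which inactivates serine proteases. The 3 mineralizing cultures received the same medium with 6.5 mM beta-glycerol phosphate and no inhibitor, and all 6 were collected at 76 h, after 12 h, in 10% fetal bovine serum. The series title calls the cultures synchronous, and how synchrony was reached is not given in the sources used here. Each value is a MAS5 signal, a brightness in arbitrary units that the submitters scaled to a common level on every array, so a level is relative to the other genes of its culture and a change in total RNA cannot be read from it.

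Cells enter mitosis when cyclin B activates Cdk1. Kinesins and other proteins then build the spindle, the centromere proteins assemble a kinetochore on each chromosome, and the checkpoint holds back the anaphase-promoting complex until every kinetochore is attached. Most of these genes are transcribed in late S phase, G2 and mitosis, and their RNA level in a culture is widely used as a measure of how many cells are cycling. In RNA of a whole culture, fewer cells in G2 and mitosis and less RNA per such cell cannot be told apart.

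With AEBSF, 11 mitotic-family genes were lower and 2 were higher, each by at most 1.45-fold. Of the 11 falls 8 were in kinetochore and spindle genes, among them Cenpe, a kinetochore motor, Cenpq, of the inner kinetochore, Nusap1, which bundles spindle microtubules, and Kif11, the motor that pushes the spindle poles apart. The others were Ccnb1, Top2a and Kif13a. The 2 genes that rose were Ccna2, the cyclin of S phase and G2, and Ncaph2, a subunit of condensin II. Of the 80 genes 75 had a probe set bright enough to be tested, which means a mean log2 signal over all 6 arrays above the 40th percentile (a signal of 67.2), and 62 of the 75 did not pass a limma adjusted p of 0.05 (Benjamini-Hochberg over all 18625 tested probe sets). The 11 falls were 14.7% of the 75, against 9.22% of 9864 tested genes, and the 2 rises were 2.67%, against 7.09%. In both directions together 17.3% of the members passed, against 16.3% of all tested genes, so the share that changed lay near the background. The members leaned to lower values: 50 of 75 had a log2 fold change below 0 (66.7%, against 49.7% of all tested genes), and their median was -0.08, against 0.00 for all tested genes. The lean itself was not tested.

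The count of falls was 6 without mineralizing culture 1 or 2 and 7 without mineralizing culture 3, where 5.05%, 5.11% and 5.62% of all tested genes were lower. It was 2 with a constant variance prior, 1 for all signal levels in place of one that follows the signal. Under that prior 4.05% of all tested genes were lower. The count of rises was 0 without mineralizing culture 1, 1 without AEBSF culture 2 or mineralizing culture 2 or 3, and 3 without AEBSF culture 3 (2.96% of all tested genes were higher without mineralizing culture 1, and 3.22% to 6.52% without each of the others). With the arrays scaled to their hybridization controls, RNAs added at the hybridization step, 18 members were lower and 0 higher, against 15.6% and 0.618% of all tested genes. That scaling moves every log2 fold change by the same -0.15 and the median of all tested genes to -0.14, so it cannot change how the members stand to other genes. Among single probe sets, 14 of 102 tested were lower (7.41% of all tested probe sets were) and 2 were higher (5.99%), together 15.7%, against 13.4%, with 8 lower without mineralizing culture 1 or 2. The groups did not overlap for 29 of the 75 genes: all 3 AEBSF values lay below all 3 mineralizing values in 23 (19.1% of all tested genes) and above them in 6 (17% of all tested genes). The largest log2 fold change of either sign among the 102 tested probe sets, 1.16 in a second Kif1a probe set, did not pass (limma adjusted p = 0.111) and had signals near the filter, of 115, 114 and 80.4 in AEBSF cultures, against 97.9, 46.5 and 20.9 in mineralizing cultures.

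**Figure D1:**
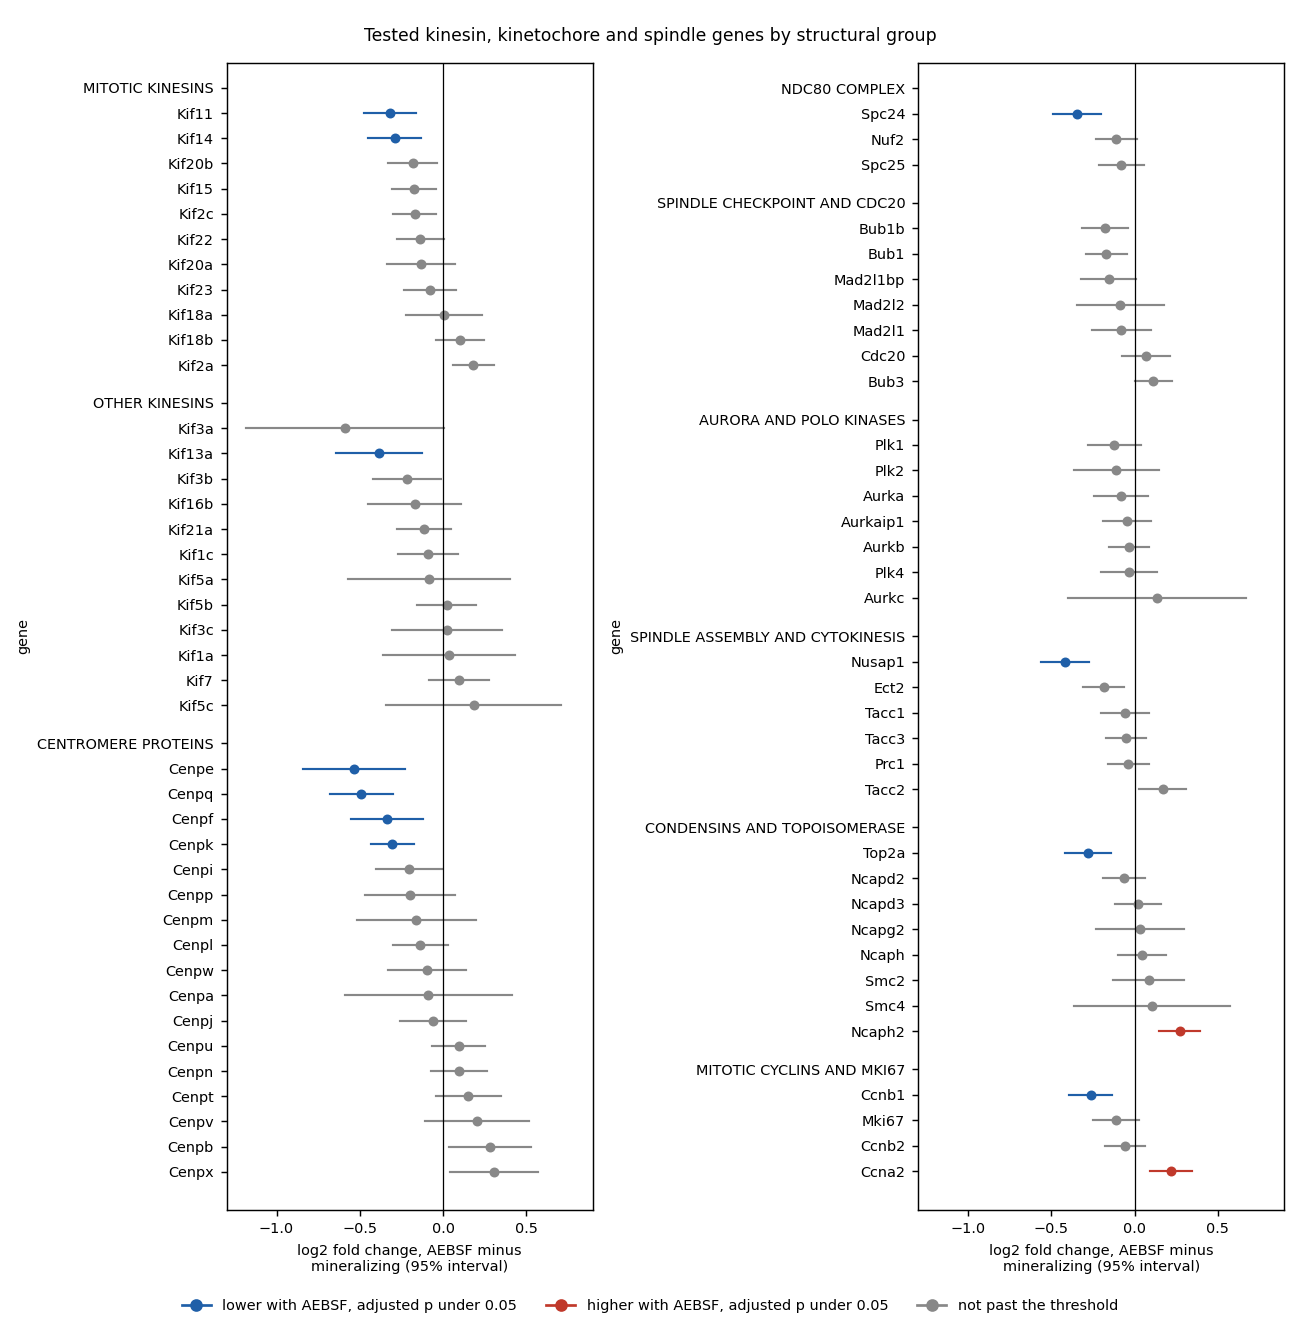
Log2 fold change (AEBSF minus mineralizing) with its 95% interval for the 75 tested genes, 1 row per gene, in 9 structural groups. Blue points are the 11 genes that fell, red points the 2 that rose, and grey points the 62 that did not pass, most of them with an interval that includes 0.

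Late cell cycle genes carry a shared pair of promoter elements, the cell cycle genes homology region, which the MuvB complex binds, and CCAAT boxes, which NF-Y binds. The RefSeq windows (assembly GRCr8, 250 bases before to 50 after the gene start) matched 72 of the 80 genes. The letters TTTGAA or TTCGAA, searched on both strands, were found in 29 of the 58 windows of members other than the interphase kinesins (50%), in 1 of 14 windows of those kinesins and in 13.02% of 8305 windows of genes with a tested probe set. CCAAT on either strand was found in 34 of the 58 (58.6%) and in 38.3% of the 8305, and both motifs together in 34.5% and 5.56%. Over all 27457 windows the shares were 19.5% for TTTGAA or TTCGAA and 37.7% for CCAAT. Among members with a window, TTTGAA or TTCGAA was in 3 of the 10 that fell and in 25 of the 56 tested ones that did not pass, and CCAAT in 9 of the 10 and 27 of the 56. These are matches of letters and not sites, the motifs are short and share a base in 1 member window, that of Mki67, and no test was made of the shares. No other spelling of the homology region was searched, so a window without TTTGAA or TTCGAA may hold another form of it.

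The 150 bases before the gene start are shown for 5 genes that fell and for 2 that did not pass. The genes shown do not stand for all members with the same call. In the full windows both motifs were found in 3 of the 10 members that fell and in 17 of the 56 that did not pass. Each stretch is written in the direction of the gene, with every match to CCAAT and to TTTGAA or TTCGAA in capitals, those on the opposite strand as TTCAAA or ATTGG.
Cenpe, chr2:226310907-226311056, + strand: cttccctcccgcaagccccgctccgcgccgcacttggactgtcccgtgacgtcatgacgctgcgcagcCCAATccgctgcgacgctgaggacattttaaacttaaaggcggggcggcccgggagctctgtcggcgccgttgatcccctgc
Nusap1, chr3:127057145-127057294, + strand: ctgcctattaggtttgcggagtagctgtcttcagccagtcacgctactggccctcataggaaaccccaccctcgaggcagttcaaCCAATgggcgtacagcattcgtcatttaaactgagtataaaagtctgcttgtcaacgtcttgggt
Kif11, chr1:244536717-244536866, + strand: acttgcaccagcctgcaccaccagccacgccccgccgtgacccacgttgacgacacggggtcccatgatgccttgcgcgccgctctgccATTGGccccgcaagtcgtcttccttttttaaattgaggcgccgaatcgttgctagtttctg
Top2a, chr10:84473094-84473243, - strand: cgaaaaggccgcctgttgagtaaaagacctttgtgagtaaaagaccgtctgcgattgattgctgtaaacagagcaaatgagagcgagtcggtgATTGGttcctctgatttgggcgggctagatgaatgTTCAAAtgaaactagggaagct
Ccnb1, chr2:33655226-33655375, - strand: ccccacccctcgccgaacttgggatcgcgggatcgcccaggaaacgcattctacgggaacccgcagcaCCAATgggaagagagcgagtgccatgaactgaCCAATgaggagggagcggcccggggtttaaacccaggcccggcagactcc
Ccnb2, chr8:79981659-79981808, - strand: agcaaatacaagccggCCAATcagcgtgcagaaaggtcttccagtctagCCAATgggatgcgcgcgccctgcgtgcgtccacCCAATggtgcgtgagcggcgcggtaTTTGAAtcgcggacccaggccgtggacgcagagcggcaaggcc
Cdc20, chr5:137255800-137255949, - strand: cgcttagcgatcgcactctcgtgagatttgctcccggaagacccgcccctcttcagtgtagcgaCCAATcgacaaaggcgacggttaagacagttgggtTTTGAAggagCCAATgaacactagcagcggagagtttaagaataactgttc
In these stretches Cenpe, Nusap1 and Kif11 have 1 CCAAT match each, Ccnb1 has 2, Top2a has 1 CCAAT and 1 TTTGAA match, Ccnb2 has 3 and 1, and Cdc20 has 2 and 1. Top2a fell, and Ccnb2 and Cdc20 did not pass. The genes shown were picked by hand, and a link between the letters and the calls was not tested. A stretch with no TTTGAA or TTCGAA match cannot be read as lacking the homology region, since other spellings were not searched. Matches outside the stretches are not shown in full: the Top2a window has TTCGAA from -152 to -147, and the Ccnb2 window has TTTGAA from -214 to -209. The Nusap1 window has a further TTTGAA 9 bases after the gene start.

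Among the mitotic kinesins 2 of 11 tested genes fell (18.2%, against 9.22% of all tested genes), 0 rose (against 7.09%) and 9 did not pass. The structural groups are small, and no group share was tested. Kif11, the bipolar motor that slides spindle microtubules apart, had signals of 1004, 1135 and 999 in AEBSF cultures, against 1269, 1285 and 1355 in mineralizing cultures. All 3 AEBSF values lay below the mineralizing values, and Kif11 was 1.25-fold lower (log2 change -0.32, SE 0.07, limma adjusted p = 0.0137). A second Kif11 probe set fell as well (log2 change -0.33, SE 0.08, limma adjusted p = 0.0199). Kif14, which acts with Prc1 in the last step of cell division, had 786, 739 and 816 in AEBSF cultures, against 954, 993 and 915 in mineralizing cultures. Kif14 was 1.22-fold lower (log2 change -0.29, SE 0.07, limma adjusted p = 0.0225). It too had no overlap between the groups, but the call did not hold without AEBSF culture 2 or mineralizing culture 1 or 2 (limma adjusted p = 0.0606, 0.0786 and 0.0963). The Kif11 call did not hold without mineralizing culture 3 (limma adjusted p = 0.0563).

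The other mitotic motors had smaller differences. Kif2c, which takes tubulin off microtubule ends at the centromere, had 1288, 1292 and 1312 in AEBSF cultures, against 1464, 1518 and 1403 in mineralizing cultures, with no overlap (log2 change -0.17, SE 0.06, limma adjusted p = 0.0808). Its relative Kif2a, which does so at the spindle poles, lay the other way, with 2436, 2456 and 2278 in AEBSF cultures, against 2178, 2068 and 2074 in mineralizing cultures (log2 change 0.18, SE 0.06, limma adjusted p = 0.0543). Kif2a missed the threshold narrowly and passed it without AEBSF culture 3 (limma adjusted p = 0.037), while 2 further Kif2a probe sets lay at 0.17 and 0.005 on the log2 scale (limma adjusted p = 0.088 and 0.974). Kif22, a motor that sits on chromosome arms, and Kif23, the motor of the central spindle, did not pass either. Kif22 averaged 1522 ± 49.2 in AEBSF cultures and 1676 ± 109.8 in mineralizing cultures (SD, n = 3 each). Kif23 averaged 1317 ± 90.7 in AEBSF cultures and 1388 ± 72.7 in mineralizing cultures (SD, n = 3 each). Their 95% intervals for the log2 fold change ran from -0.28 to 0.00 and from -0.23 to 0.08. Kif15, which backs up Kif11 at the spindle, and Kif20b, a motor of cytokinesis, lay lower without overlap of the groups and did not pass (log2 fold change -0.18 and -0.18, limma adjusted p = 0.076 and 0.0967). Kif18a, Kif18b and Kif20a lay at 0.003, 0.10 and -0.13 on the log2 scale, with overlapping groups.

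Of 16 kinesins outside mitosis 12 were tested and 1 fell (8.33%, against 9.22% of all tested genes). Kif13a, which carries vesicles between the Golgi and endosomes, had 301, 251 and 271 in AEBSF cultures, against 390.0, 339 and 344 in mineralizing cultures. Kif13a was 1.31-fold lower (log2 change -0.39, SE 0.12, limma adjusted p = 0.0499). The call stood at the threshold: it did not hold without any 1 of the 6 arrays (limma adjusted p = 0.0506 to 0.183), and a second Kif13a probe set lay at -0.06 on the log2 scale. Kif3a, a motor of transport into the cilium, had the lowest log2 fold change of the 75 genes, -0.59, but its AEBSF values spread widely (84.6, 205 and 169 in AEBSF cultures, against 204, 254 and 192 in mineralizing cultures) and overlapped the mineralizing ones (SE 0.27, limma adjusted p = 0.179). Conventional kinesin Kif5b had 3910, 3641 and 4588 in AEBSF cultures, against 3807, 4269 and 3843 in mineralizing cultures, with a 95% interval of -0.15 to 0.20 for the log2 fold change. Kif21a and Kif1c, motors of vesicle and axonal transport, had log2 fold changes of -0.11 and -0.09 (limma adjusted p = 0.346 and 0.525). Kif12, Kif1b, Kif26b and Kif6 lay below the filter and were not tested.

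The genes with Cenp names, grouped as centromere proteins, held 4 of the 11 falls, among 17 tested genes, with 0 rises. That is 23.5% lower and 0% higher, against 9.22% and 7.09% of all tested genes. Among the 17 is Cenpj, which carries the family name but encodes a centriole protein (log2 fold change -0.06, limma adjusted p = 0.706). Of the group, the 2 that bind microtubules at the outer kinetochore both fell. Cenpe, itself a kinesin that carries chromosomes toward the spindle equator, had 202, 279 and 257 in AEBSF cultures, against 351, 323 and 389.8 in mineralizing cultures. Cenpe was 1.45-fold lower (log2 change -0.54, SE 0.14, limma adjusted p = 0.0275). No AEBSF value reached a mineralizing one, and the gene had the largest fall among the members that passed. Cenpf, a large coiled-coil protein of the kinetochore and nuclear matrix, had 879.7, 1168 and 900.5 in AEBSF cultures, against 1292, 1219 and 1182 in mineralizing cultures. Cenpf was 1.26-fold lower (log2 change -0.34, SE 0.10, limma adjusted p = 0.0442). AEBSF culture 2, at 1168, lay just under the lowest mineralizing value of 1182. The Cenpe call did not hold without AEBSF culture 1 or mineralizing culture 1 or 3 (limma adjusted p = 0.0839, 0.0793 and 0.0971), and the Cenpf call was lost without any 1 array other than AEBSF culture 2 (0.0784 to 0.147).

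The inner kinetochore is a network of small complexes that sits on the centromeric histone Cenpa. Partners within a complex differed in call, and the differences between them were not tested. In the complex that holds Cenpi, Cenpk and Cenpm, Cenpk had 1217, 1223 and 1267 in AEBSF cultures, against 1465, 1547 and 1566 in mineralizing cultures. Cenpk was 1.23-fold lower (log2 change -0.30, SE 0.06, limma adjusted p = 0.00761). The groups were far apart for Cenpk, and its call held without any 1 array. Its partners Cenpi and Cenpm had log2 fold changes of -0.21 and -0.16 (limma adjusted p = 0.157 and 0.562), Cenpm with AEBSF signals as far apart as 327 and 578. In the complex of Cenpp, Cenpq and Cenpu, Cenpq had 456, 468 and 478 in AEBSF cultures, against 684, 603 and 686 in mineralizing cultures. The AEBSF values lay close together, and Cenpq was 1.41-fold lower (log2 change -0.49, SE 0.09, limma adjusted p = 0.00405). This call held in every one of the 17 alternatives tried, with a highest limma adjusted p of 0.0269. Cenpp had a log2 fold change of -0.20 and Cenpu of 0.09 (limma adjusted p = 0.332 and 0.442).

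Among the histone-fold proteins, which bind centromeric DNA, values pointed both ways. Cenpw, represented by a probe set with 918 ± 127 in AEBSF cultures and 980.0 ± 106 in mineralizing cultures, did not pass, while a second Cenpw probe set fell, with 644, 654 and 676 in AEBSF cultures, against 829, 803 and 865 in mineralizing cultures (log2 change -0.34, SE 0.07, limma adjusted p = 0.0113). Cenpx and Cenpt lay higher and did not pass (log2 fold change 0.31 and 0.15, limma adjusted p = 0.119 and 0.3). Cenpx had 683, 628 and 481 in AEBSF cultures, against 458, 471 and 505 in mineralizing cultures, and it passed without AEBSF culture 3, the lowest of its AEBSF values (log2 fold change 0.45, limma adjusted p = 0.0128). Cenpl and Cenpn, partners that read the Cenpa nucleosome, had log2 fold changes of -0.14 and 0.10 (limma adjusted p = 0.264 and 0.458). Cenpa itself was dim, with 80.4, 128 and 109 in AEBSF cultures, against 126, 90.0 and 119 in mineralizing cultures, and the 95% interval of its log2 fold change, -0.59 to 0.41, was too wide to show a change of the size seen elsewhere. Cenpb, which binds the repeat DNA of the centromere, lay at 0.28 on the log2 scale (limma adjusted p = 0.125).

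**Figure D2:**
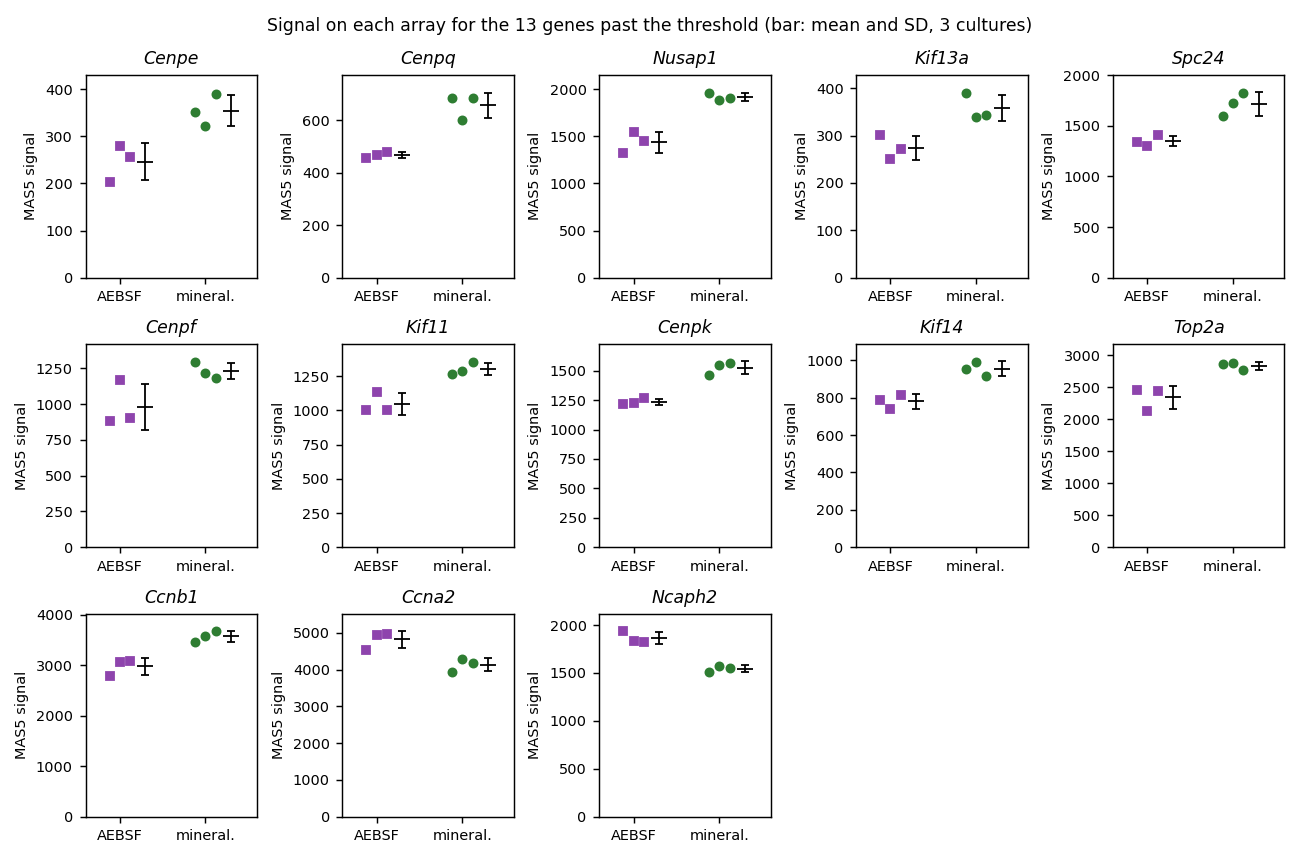
MAS5 signal on each array for the 13 genes that passed, 1 panel per gene with its own scale from 0, AEBSF cultures as squares at the left and mineralizing cultures as circles at the right of each panel, and the mean with its SD (n = 3) beside each group. In every panel the groups do not overlap, and only Ccna2 and Ncaph2 have the AEBSF cultures above.

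The Ndc80 complex is the rod that couples the kinetochore to the microtubule. Of its 3 tested subunit genes 1 fell (33.3%, against 9.22% of all tested genes). Spc24, which joins the rod to the inner kinetochore, had 1344, 1305 and 1406 in AEBSF cultures, against 1600, 1722 and 1829 in mineralizing cultures. Spc24 was 1.27-fold lower (log2 change -0.34, SE 0.07, limma adjusted p = 0.00685), and the call held without any 1 array. Its direct partner Spc25 had 1341, 1426 and 1479 in AEBSF cultures, against 1499, 1474 and 1507 in mineralizing cultures (log2 change -0.08, SE 0.06, limma adjusted p = 0.434), so partners in 1 complex differed in call. Nuf2 had 2635, 2704 and 2892 in AEBSF cultures, against 2895, 2939 and 3046 in mineralizing cultures: the groups did not overlap but lay close (log2 change -0.11, SE 0.06, limma adjusted p = 0.223). The difference between Spc24 and its partners was not tested.

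Of the 7 tested genes of the spindle checkpoint, which delays anaphase, and its target Cdc20, 0 passed in limma, and 3 had an unadjusted p under 0.05, as 31.9% of all tested genes did. The checkpoint kinase Bub1 had 2300, 2352 and 2362 in AEBSF cultures, against 2631, 2763 and 2496 in mineralizing cultures (log2 change -0.17, SE 0.06, limma adjusted p = 0.0699). Bub1b, the checkpoint protein BubR1, had 1101, 1159 and 1187 in AEBSF cultures, against 1335, 1275 and 1284 in mineralizing cultures (log2 change -0.18, SE 0.06, limma adjusted p = 0.0853). In both, every AEBSF value lay below every mineralizing value, and both missed the threshold. Their partner Bub3 lay the other way, with 4941, 5186 and 5015 in AEBSF cultures, against 4517, 4656 and 4827 in mineralizing cultures (log2 change 0.11, SE 0.05, limma adjusted p = 0.17), also without overlap. With the hybridization scaling, which lowers every gene alike, Bub1 and Bub1b passed (limma adjusted p = 0.0212 and 0.0356) and Bub3 lay at -0.03 on the log2 scale. Bub1 also passed with the filter at the 60th percentile (0.0486). Mad2l1, which inhibits Cdc20 until chromosomes are attached, had 964, 1082 and 1141 in AEBSF cultures, against 1121, 1035 and 1207 in mineralizing cultures, and its 3 tested probe sets had log2 fold changes of -0.09 to 0.03. Cdc20, which activates the anaphase-promoting complex, had 1001, 1002 and 1052 in AEBSF cultures, against 983, 927 and 1005 in mineralizing cultures (95% interval of the log2 fold change -0.08 to 0.21), and its 4 tested probe sets ran from -0.25 to 0.16. The remaining members, Mad2l1bp and Mad2l2, lay at -0.15 and -0.09.

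Aurora and Polo kinases drive centrosome maturation, attachment and cytokinesis. The genes with these family names gave 0 calls among 7 tested in limma and 0 at an unadjusted p under 0.05 (31.9% of all tested genes). Among the 7 is Aurkaip1, which encodes a binding protein and not a kinase (log2 fold change -0.04, limma adjusted p = 0.72). Aurka, the kinase of the spindle poles, had 1170, 1319 and 1307 in AEBSF cultures, against 1242, 1353 and 1424 in mineralizing cultures, with overlapping groups (log2 change -0.08, SE 0.07, limma adjusted p = 0.506). Aurkb, the kinase of the chromosomal passenger complex, had 1719, 1791 and 1725 in AEBSF cultures, against 1811, 1809 and 1741 in mineralizing cultures (log2 change -0.03, SE 0.06, limma adjusted p = 0.731). Plk1, which acts from mitotic entry to cytokinesis, had 1827, 1686 and 1912 in AEBSF cultures, against 2124, 1980 and 1798 in mineralizing cultures, and Plk4, which starts the copying of centrioles, had 2897, 2731 and 3352 in AEBSF cultures, against 3033, 3275 and 2856 in mineralizing cultures (limma adjusted p = 0.313 and 0.828). In all 4 the groups overlapped. The 95% intervals of the log2 fold change were -0.24 to 0.08 for Aurka and -0.16 to 0.09 for Aurkb. They were -0.28 to 0.04 for Plk1 and -0.20 to 0.14 for Plk4. A fall of the size of Cenpq (log2 change -0.49) lay outside each of them, and one of the size of Ccnb1 (-0.26) lay inside that of Plk1 only. Plk3 was below the filter.

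Among 6 tested genes of spindle assembly and cytokinesis 1 fell (16.7%, against 9.22% of all tested genes). Nusap1, which bundles microtubules around chromosomes, had 1322, 1544 and 1452 in AEBSF cultures, against 1965, 1882 and 1909 in mineralizing cultures. Nusap1 was 1.34-fold lower (log2 change -0.42, SE 0.07, limma adjusted p = 0.00247). Its second probe set gave 1084, 1188 and 1156 in AEBSF cultures, against 1400, 1560 and 1714 in mineralizing cultures (log2 change -0.44, SE 0.08, limma adjusted p = 0.00425). Neither probe set had overlapping groups, and the Nusap1 call held in all 17 alternatives, with a highest limma adjusted p of 0.0413. Ect2, the exchange factor that switches on RhoA for the cleavage furrow, had 2634, 2571 and 2831 in AEBSF cultures, against 3052, 3122 and 2955 in mineralizing cultures and just missed the threshold (log2 change -0.18, SE 0.06, limma adjusted p = 0.0511). It passed in 7 of the 17 alternatives, among them the one without AEBSF culture 3 (limma adjusted p = 0.029). Prc1, which crosslinks the microtubules of the central spindle, and Tacc3, which stabilises spindle fibres, had log2 fold changes of -0.04 and -0.05 (limma adjusted p = 0.716 and 0.607), and Tacc1 and Tacc2 lay at -0.06 and 0.17 without passing.

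Condensins, which compact mitotic chromosomes, and topoisomerase II alpha, which untangles them, gave 1 rise and 1 fall among 8 tested genes. Each is 12.5%, against 7.09% higher and 9.22% lower among all tested genes. Top2a, the topoisomerase, had 2452, 2136 and 2438 in AEBSF cultures, against 2872, 2881 and 2769 in mineralizing cultures. Top2a was 1.22-fold lower (log2 change -0.28, SE 0.06, limma adjusted p = 0.0149). Its second probe set lay lower too, at a log2 fold change of -0.18, without passing (limma adjusted p = 0.142). The Top2a call did not hold without mineralizing culture 1 or 2 (limma adjusted p = 0.0588 and 0.0606). Ncaph2, a subunit of condensin II, had 1941, 1834 and 1823 in AEBSF cultures, against 1510, 1578 and 1551 in mineralizing cultures, with all AEBSF values above. Ncaph2 was 1.21-fold higher (log2 change 0.27, SE 0.06, limma adjusted p = 0.0111). Its other probe set pointed down, with 1492, 1675 and 1446 in AEBSF cultures, against 1656, 1717 and 1579 in mineralizing cultures (log2 fold change -0.10, limma adjusted p = 0.36), so the direction of Ncaph2 rests on 1 of 2 probe sets. The rise did not pass without mineralizing culture 1 (limma adjusted p = 0.0549), when its probe sets were averaged (0.329) or with the hybridization scaling (0.44). The condensin subunits Ncapd2, Ncaph and Smc2 had log2 fold changes of -0.06, 0.05 and 0.08 (limma adjusted p = 0.505, 0.695 and 0.613).

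The cyclins went in opposite directions. Ccnb1, the cyclin whose binding to Cdk1 starts mitosis, had 2777, 3071 and 3081 in AEBSF cultures, against 3462, 3570 and 3677 in mineralizing cultures. Ccnb1 was lower (log2 change -0.26, SE 0.06, limma adjusted p = 0.0135). Ccna2, the cyclin of S phase and G2, had 4543, 4937 and 4970 in AEBSF cultures, against 3939, 4294 and 4167 in mineralizing cultures. Ccna2 was 1.17-fold higher (log2 change 0.22, SE 0.06, limma adjusted p = 0.0269). Neither had overlapping groups. The Ccnb1 call did not hold without mineralizing culture 2 (limma adjusted p = 0.0528) or when its probe sets were averaged (0.0558), and its other probe set lay at -0.14. The Ccna2 call was lost without any 1 array other than AEBSF culture 1 (limma adjusted p = 0.0542 to 0.107), and it did not pass with the hybridization scaling (0.63). Ccnb2, the second B-type cyclin, had 2382, 2193 and 2269 in AEBSF cultures, against 2337, 2376 and 2398 in mineralizing cultures (95% interval of the log2 fold change -0.18 to 0.06). Mki67, the marker used to count cycling cells, had 1997, 2288 and 2284 in AEBSF cultures, against 2415, 2338 and 2330 in mineralizing cultures (limma adjusted p = 0.282). For Mki67 the groups did not overlap by a narrow margin, and the 95% interval of its log2 fold change was -0.25 to 0.03.

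Several genes could be read from more than 1 probe set, which are different stretches of the same transcript or of its variants. Of 21 members with at least 2 tested probe sets, 16 had log2 fold changes of 1 sign throughout. Of 6 such genes whose representative probe set passed, 2, Kif11 and Nusap1, had another that passed the same way, and in 1 gene, Cenpw, a probe set other than the representative passed. Kif13a, Ccnb1, Top2a and Ncaph2 each passed on 1 probe set alone, and of these only Ncaph2 had its probe sets on opposite sides of 0.

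**Figure D3:**
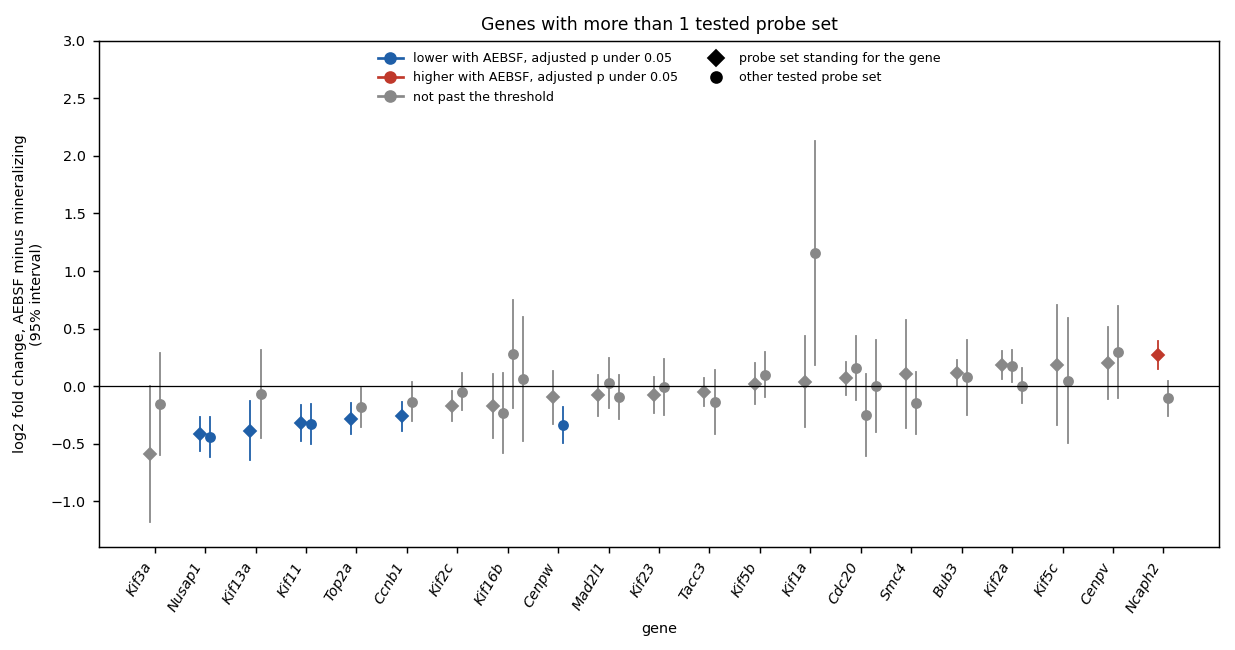
Log2 fold change (AEBSF minus mineralizing) with its 95% interval for every tested probe set of the 21 genes that have more than 1, ordered by the probe set that stands for the gene (diamonds), with the other probe sets as circles. Both probe sets of Nusap1 and of Kif11 are blue, that is lower and past the threshold, while Ncaph2 has 1 red and 1 grey point on opposite sides of 0.

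Genes of the same machinery that the name pattern did not take were read from 9 lists, of which 156 genes were tested. Of these 16 fell and 12 rose (10.3% and 7.69%), with a median log2 fold change of 0.01, close to the 9.22%, 7.09% and 0.00 of all tested genes. The lists of the chromosomal passenger complex (5 tested) and of cohesin, separase and shugoshin (17 tested) had 0 calls in limma, with 0 and 4 genes at an unadjusted p under 0.05 (31.9% of all tested genes). Rad21, a cohesin subunit, Pds5a, which regulates cohesin, and Birc5 and Rcc2 of the passenger list had log2 fold changes of 0.12, -0.02, 0.06 and 0.05. Of 18 tested genes of the anaphase-promoting complex and its regulators 1 fell, the large subunit Anapc1 (log2 change -0.37, SE 0.07, limma adjusted p = 0.00601), a call that did not hold when its probe sets were averaged (limma adjusted p = 0.26). In the centriole list 1 of 14 fell, Cetn2 (log2 change -0.24, SE 0.06, limma adjusted p = 0.0159), which lost its call without mineralizing culture 1, 2 or 3 (limma adjusted p = 0.0585, 0.0588 and 0.0539).

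Other kinetochore proteins gave 2 falls and 2 rises among 18 tested genes (11.1% each, against 9.22% and 7.09% of all tested genes). Itgb3bp, which encodes CENP-R and belongs to the same inner complex as Cenpq, had 733, 819 and 776 in AEBSF cultures, against 1063, 1109 and 1109 in mineralizing cultures (log2 change -0.50, SE 0.07, limma adjusted p = 0.00117). Zwint, which takes part in bringing the motor dynein to the kinetochore, went the other way and had 7258, 7481 and 7269 in AEBSF cultures, against 5248, 5246 and 5706 in mineralizing cultures (log2 change 0.44, SE 0.05, limma adjusted p = 0.000492). The groups did not overlap for either gene, and both calls held without any 1 array. The checkpoint kinase Ttk fell (log2 fold change -0.21) and Trip13, which takes checkpoint complexes apart, rose (0.22). Both stood at the threshold (limma adjusted p = 0.0451 and 0.0464): Ttk held only without AEBSF culture 3, with limma adjusted p of 0.0792 to 0.139 without each other array, and Trip13 only without AEBSF culture 1, with 0.0775 to 0.139 without each other array. Trip13 did not pass with the hybridization scaling either (0.711).

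Other spindle and cytokinesis proteins gave 4 falls and 2 rises among 31 tested (12.9% and 6.45%, against 9.22% and 7.09% of all tested genes). Subunits of augmin, which makes microtubules branch inside the spindle, moved in both directions: Haus4 and Haus1 fell (log2 change -0.37, SE 0.07, limma adjusted p = 0.00571 for Haus4 and -0.35, 0.0109 for Haus1) and Haus8 rose (log2 change 0.39, SE 0.08, limma adjusted p = 0.0127). The Haus1 call did not hold when its probe sets were averaged (0.465), and Haus5, Haus6 and Haus7 did not pass. Tubgcp4, part of the ring that nucleates microtubules, rose by 0.50 on the log2 scale, and Hmmr, a spindle pole protein, lay at -0.36 (limma adjusted p = 0.0182 and 0.0298). The Haus8 call was lost without mineralizing culture 3 (limma adjusted p = 0.0504), that of Tubgcp4 without AEBSF culture 3 or mineralizing culture 1 or 2 (0.0566 to 0.0761), and that of Hmmr without any array but AEBSF culture 3 (0.0636 to 0.1). Neither rise passed with the hybridization scaling (0.19 for Haus8 and 0.0878 for Tubgcp4).

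Regulators of mitotic entry and of late cell cycle transcription gave 2 rises and 1 fall among 18 tested. These were 11.1% and 5.56%, against 7.09% and 9.22% of all tested genes. Mybl2, which joins MuvB at late cell cycle promoters, had 1477, 1320 and 1351 in AEBSF cultures, against 1075, 1002 and 932 in mineralizing cultures (log2 change 0.46, SE 0.07, limma adjusted p = 0.00243), and Lin52, a MuvB subunit, had 797, 657 and 782 in AEBSF cultures, against 545, 533 and 482 in mineralizing cultures (log2 change 0.52, SE 0.10, limma adjusted p = 0.00527). Foxm1, the factor that follows Mybl2 at these promoters in G2, had 704, 752 and 688 in AEBSF cultures, against 879.8, 861 and 869.9 in mineralizing cultures (log2 change -0.29, SE 0.07, limma adjusted p = 0.0225). The groups did not overlap for any of the 3 factors. The Foxm1 call did not hold without AEBSF culture 1 or mineralizing culture 1, 2 or 3 (limma adjusted p = 0.057 to 0.0857) or when its probe sets were averaged (0.845), and the Mybl2 rise missed the threshold with the hybridization scaling (0.0506). Cdk1, the kinase of mitosis, had 3019, 3044 and 2941 in AEBSF cultures, against 2860, 3047 and 3193 in mineralizing cultures, with a 95% interval of -0.14 to 0.11 for the log2 fold change.

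Genes of G1 and S phase gave 5 rises and 3 falls among 19 tested (26.3% and 15.8%, against 7.09% and 9.22% of all tested genes). The pocket proteins Rb1 and Rbl2, which hold back E2F factors, were lower: Rbl2 had 179, 173 and 217 in AEBSF cultures, against 336, 363 and 306 in mineralizing cultures (log2 change -0.83, SE 0.14, limma adjusted p = 0.00281), and Rb1 had 391, 231 and 373 in AEBSF cultures, against 438, 704 and 716 in mineralizing cultures (log2 change -0.90, SE 0.21, limma adjusted p = 0.0176). E2f2, an activating E2F factor, had 711, 732 and 696 in AEBSF cultures, against 552, 540.2 and 465 in mineralizing cultures (log2 change 0.46, SE 0.09, limma adjusted p = 0.00634), and Ccnd1, the G1 cyclin, lay at -0.35 on the log2 scale (limma adjusted p = 0.0144). For each of these 4 genes the groups did not overlap. The pocket protein Rbl1 had overlapping groups and did not pass (log2 fold change -0.05, limma adjusted p = 0.751). Rb1 lost its call without mineralizing culture 2 or 3 (limma adjusted p = 0.0667 and 0.0666), Ccnd1 likewise (0.0561 and 0.0521), and E2f2 with the hybridization scaling (0.0896). The other rises of this list were Ccne1, E2f6, Tfdp1 and Ccne2 (log2 fold change 0.31, 0.28, 0.22 and 0.21, limma adjusted p = 0.0183, 0.0203, 0.0286 and 0.04). Among 16 tested inhibitors of cyclin-dependent kinases and genes of the p53 response, 4 fell and 1 rose. These were 25% and 6.25%, against 9.22% and 7.09% of all tested genes. Gadd45g and Ccng2, known as growth-arrest genes, fell (log2 change -0.58, SE 0.07, limma adjusted p = 0.000459 for Gadd45g and -0.50, 0.00183 for Ccng2), Gadd45b rose by 0.40 on the log2 scale, and the antiproliferative gene Btg1 had a log2 fold change of -0.28. The Gadd45b and Btg1 calls (limma adjusted p = 0.0206 and 0.0294) were lost without AEBSF culture 2 or mineralizing culture 1, 2 or 3 (0.0574 to 0.0695 and 0.0538 to 0.0896), and Gadd45b did not pass with the hybridization scaling (0.245). Cdkn1a, the inhibitor p21, had 2102, 1791 and 1597 in AEBSF cultures, against 2153, 1947 and 1834 in mineralizing cultures (limma adjusted p = 0.443). Cdkn1b, another inhibitor, fell (log2 fold change -0.24, limma adjusted p = 0.0281).

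**Figure D4:**
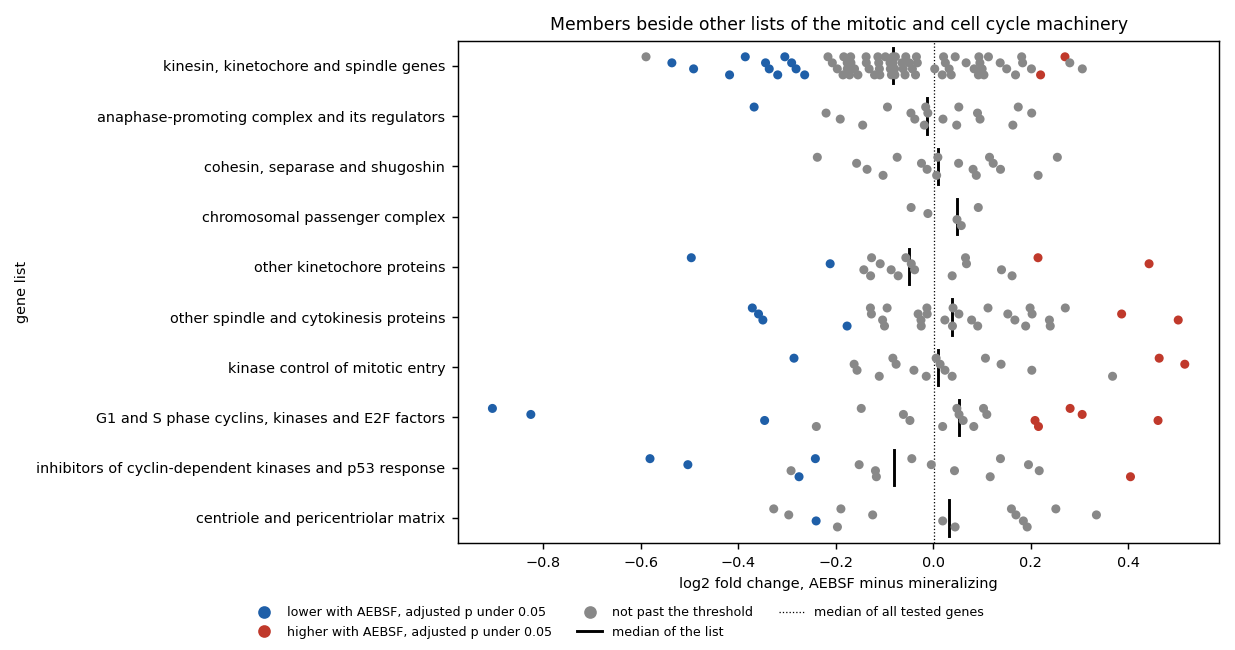
Log2 fold change (AEBSF minus mineralizing) of each tested gene, 1 point per gene, for the kinesin, kinetochore and spindle genes (top row) and for 9 other lists of mitotic and cell cycle genes, with the median of each list as a thick line and that of all tested genes dotted. The median of the top row is -0.08, and blue and red points (lower and higher, past the threshold) stand on both sides of 0 in 5 of the 9 lists.

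The label of the cultures was read against marker genes. Of 8 osteoblast markers 6 had a probe set with 1 symbol, and Sp7 and Runx2 had none. Their signals summed to 22288 to 22902 in AEBSF cultures and 21888 to 23035 in mineralizing cultures. Most of each sum is Ibsp, with means of 17101 in AEBSF cultures and 16520 in mineralizing cultures, so the sum says little of the other markers. Ibsp, Alpl, Pth1r, Spp1 and Col1a1 lay above the signal filter and Bglap below it. Col1a1, the chain of type I collagen, was lower with AEBSF (log2 fold change -0.67, limma adjusted p = 0.00116), and 4 of the 5 tested markers did not pass. Markers of macrophages and osteoclasts summed to 241 to 328 in AEBSF cultures and 294 to 369 in mineralizing cultures over 8 genes, of which 1 lay above the filter. Of the endothelial, adipocyte, chondrocyte and muscle lists 0, 1, 1 and 1 genes lay above it. Of these 4 tested genes of other cell types, 0 passed the threshold in limma and 0 reached an unadjusted p under 0.05.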

How the data were processed

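Per the submitters' processing notes, the authors made each deposited intensity as a MAS5 signal in GCOS. Tool versions and the scaling target are not stated. All 6 arrays were used, 1 per culture, with 3 cultures to a group, and their number limits the precision. The platform annotation gave 1 symbol for 20832 probe sets and several for 436, and all 120 member symbols were unchanged in RefSeq (GRCr8).

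Log2 signals, with no constant added, were fitted with limma 3.58.1 under R 4.3.3, by lmFit and by eBayes with trended variance. Fitted were 18625 probe sets, those above the 40th percentile of mean log2 signal (a signal of 67.2) and not among 57 controls. P-values were adjusted over all of them by Benjamini-Hochberg, with a threshold of 0.05, and the fit was tested on simulated data. Each gene stands on its brightest probe set, by the mean over all 6 arrays. A fold is 2 to the power of the log2 fold change, without its sign.

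The members and lists were chosen with earlier results of these data known. Genes named in the text are the members past the threshold, up to 3 others per structural group by signal, a set fixed by name, and up to 4 called genes per pathway list, or its 2 brightest where none was called. Kif1a, Kif3a, Kif15, Kif18a, Kif18b, Kif20a, Kif20b, Cenpb, Cenpi, Cenpm, Cenpp, Cenpt, Cenpu, Cenpx, Mad2l1bp, Mad2l2, Tacc1, Tacc2, Haus1, Haus5, Haus6 and Haus7 were added after their values were seen. So were Aurkaip1, Ccne1, Ccne2, Cdkn1b, Cenpj, E2f6, Rbl1 and Tfdp1, which were not followed through the alternatives. Alternatives covered the scaling, a constant added before the log, the filter, the variance prior, a replicate block, the probe sets of a gene, and each array left out.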

Additional observations from a re-analysis of the deposited data

How the results depend on the processing

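Of the results on members and on named genes, 92 genes were followed through 17 alternatives: 1375 values kept their side of the threshold and their sign, 126 (27 genes) fell short of the threshold, 17 (9 genes) newly passed it and 43 (22 genes) turned sign, none of the 43 past the threshold on either side. The 14 lower probe sets became 4 with a constant variance prior and 22 with scaling to hybridization controls, and the 2 higher ones became 0 under each of these and 1 each with median centring and with no signal filter. The 11 lower genes became 2 with the constant prior and 18 with the hybridization scaling, and the 2 higher genes became 0 under each of these and 1 each with averaging of a gene's probe sets, median centring and no filter. Leaving out 1 array gave 8 to 13 lower and 1 to 3 higher probe sets, 6 to 10 lower and 0 to 3 higher genes, and a median of -0.108 to -0.0712. The median was -0.23 with the hybridization scaling, with all genes at -0.14. Of the 13 genes that passed, Cenpq and Nusap1 kept their call in all 17 alternatives, and with Spc24 and Cenpk 4 kept it whichever array was left out.

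The hybridization scaling moved all 9864 genes by the same -0.15, so by construction log2 fold changes between 0 and that size turned sign, to -0.125 for Kif5b, -0.0504 for Cenpn, -0.0328 for Bub3, -0.101 for Ncaph, -0.0622 for Smc2, -0.0787 for Cdc20, -0.0306 for Rad21, -0.0974 for Rcc2, -0.0886 for Birc5, -0.0534 for Cenpu, -0.143 for Kif18a, -0.0458 for Kif18b, -0.109 for Kif1a, -0.122 for Haus6 and -0.0338 for Haus7. Kif5b was -0.00829 with quantile normalization. Averaging of probe sets gave -0.00565 for Cdc20 and 0.0206 for Pds5a. Leaving out 1 array moved across 0 the values of Kif5b (-0.0726 to 0.0942), Cenpw (-0.183 to 0.0161), Plk4 (-0.117 to 0.031), Smc2 (-0.00762 to 0.186), Cenpa (-0.239 to 0.0971), Pds5a (-0.0567 to 0.00948), Rcc2 (-0.0159 to 0.101), Birc5 (-0.0577 to 0.146), Cdk1 (-0.0557 to 0.0236), Cenpm (-0.348 to 0.0629), Kif18a (-0.0695 to 0.105), Kif1a (-0.149 to 0.158), Mad2l2 (-0.191 to 0.0129), Haus6 (-0.000578 to 0.0625) and Haus7 (-0.0104 to 0.248). The cause of the turns other than those of the hybridization scaling was not tested.

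Same-numbered arrays of the groups had correlations of 0.01, -0.12 and -0.04 between their deviations from the group means, so the numbers were not taken to pair the samples. With a replicate block 8 genes were lower and 2 higher, and 11 and 2 probe sets.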
